A study of Homo sapiens with 10 samples.

Results

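The mevalonate arm of sterol synthesis was examined in ARPE-19 cells, an established human line of retinal pigment epithelium (RPE), the cell layer that nourishes the photoreceptors. The arm was taken as 8 genes, ACAT2, HMGCS1, MVK, PMVK, MVD, IDI1, FDPS and GGPS1, found by their symbol among the 22626 rows of the read-count table, and each symbol matched 1 row. RNA was sequenced after 48 h in control medium, made of D-glucose at 5.5 mM plus mannitol at 32 mM (n = 5 libraries), or in high glucose (HG) medium with 37.5 mM D-glucose (n = 5). Mannitol, a sugar alcohol, was named for the control medium and not for the HG medium. All libraries came from the same line in serum-containing medium. The study's methods speak of independent experiments in general and do not name the sequenced libraries, so that p-values measure the spread between these libraries, which may be technical. In bulk RNA, a change in the RNA of every cell and a change in the share of cells with that RNA cannot be told apart.

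The mevalonate arm turns acetyl-CoA into the isoprenoid chains from which cells build cholesterol, ubiquinone, dolichol and the lipid anchors of small GTPases. Its enzymes first join acetyl-CoA units, then phosphorylate and decarboxylate mevalonate to a 5-carbon unit, and then link such units into farnesyl and geranylgeranyl diphosphate. Many genes of the pathway are known targets of the transcription factor SREBP-2, which is released from the endoplasmic reticulum when its membrane holds little cholesterol and acts at promoters together with NF-Y and Sp1. RPE cells handle large amounts of lipid from the outer segments they take up.

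The promoters of 6 members are shown as sequence that the choice of genes did not use, and no test links them to the changes. RefSeq windows (GRCh38.p14) were found for 7 of the 8 members, all but ACAT2. Each line gives the 250 bases before the RefSeq start, 5′ to 3′ on the strand of the gene, and capitals mark the NF-Y box, CCAAT or, read on the other strand, ATTGG. Where a gene had more than 1 window, the one nearest to the gene start in GENCODE release 29 is printed. The windows are chr5:43313413-43313662 (minus strand) for HMGCS1, chr12:109573544-109573793 (plus) for MVK, chr16:88663092-88663341 (minus) for MVD, chr10:1049120-1049369 (minus) for IDI1, chr1:155308616-155308865 (plus) for FDPS and chr1:154936720-154936969 (minus) for PMVK.
HMGCS1: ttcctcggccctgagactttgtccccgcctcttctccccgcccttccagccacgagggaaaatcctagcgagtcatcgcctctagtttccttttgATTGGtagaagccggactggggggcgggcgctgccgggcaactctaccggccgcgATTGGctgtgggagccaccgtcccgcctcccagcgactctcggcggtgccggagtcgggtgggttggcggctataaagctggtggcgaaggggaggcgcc
MVK: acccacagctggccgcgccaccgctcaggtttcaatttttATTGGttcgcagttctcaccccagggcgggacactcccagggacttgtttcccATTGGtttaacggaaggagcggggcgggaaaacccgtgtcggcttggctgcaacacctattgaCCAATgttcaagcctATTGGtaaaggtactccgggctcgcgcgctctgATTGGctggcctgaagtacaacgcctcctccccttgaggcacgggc
MVD: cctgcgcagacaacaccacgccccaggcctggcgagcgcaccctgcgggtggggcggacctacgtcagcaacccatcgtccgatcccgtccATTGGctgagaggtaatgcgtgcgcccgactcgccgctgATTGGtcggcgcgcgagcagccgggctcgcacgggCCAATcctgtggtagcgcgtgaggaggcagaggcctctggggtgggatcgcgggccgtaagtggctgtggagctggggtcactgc
IDI1: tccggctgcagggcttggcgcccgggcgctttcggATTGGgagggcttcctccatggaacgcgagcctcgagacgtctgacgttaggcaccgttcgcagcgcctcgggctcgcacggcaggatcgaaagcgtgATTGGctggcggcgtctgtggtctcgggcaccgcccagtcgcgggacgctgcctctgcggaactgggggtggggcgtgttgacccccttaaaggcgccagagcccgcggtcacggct
FDPS: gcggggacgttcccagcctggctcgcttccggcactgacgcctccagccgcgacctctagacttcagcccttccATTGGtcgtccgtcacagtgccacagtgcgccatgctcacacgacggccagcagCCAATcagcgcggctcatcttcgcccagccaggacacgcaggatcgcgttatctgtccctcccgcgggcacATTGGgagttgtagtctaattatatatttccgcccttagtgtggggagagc
PMVK: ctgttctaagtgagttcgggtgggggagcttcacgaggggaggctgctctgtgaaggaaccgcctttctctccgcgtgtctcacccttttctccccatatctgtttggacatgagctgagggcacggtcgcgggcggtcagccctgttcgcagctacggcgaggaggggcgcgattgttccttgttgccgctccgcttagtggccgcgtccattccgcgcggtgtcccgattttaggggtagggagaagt

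The printed windows of HMGCS1 and IDI1 held 2 NF-Y boxes each, those of MVD and FDPS 3 each, and that of MVK 5. The window of PMVK held 0, and so did the window of GGPS1 nearest to its start (chr1:235326966-235327215, plus strand, not printed). Among 35116 RefSeq windows of the same length, 32% held at least 1 such box and 9.53% at least 2. The other windows gave other numbers for some members. IDI1 had 3 windows with 0, 3 and 2 boxes, where 1 pair in the second window overlapped on opposite strands, HMGCS1 had a second window with 0, and the 3 windows of GGPS1 held 0, 1 and 0. The GC box bound by Sp1, GGGCGG on either strand, was in every printed window, not in the GGPS1 window nearest to its start, and in 42.6% of all windows. The sterol element in the form TCACNCCAC was in no member window and in 0.883% of all windows, and the E-box CACGTG was in no member window and in 6.34% of all. These are matches of letters only, in windows that do not reach beyond the start.

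**Figure D1:**
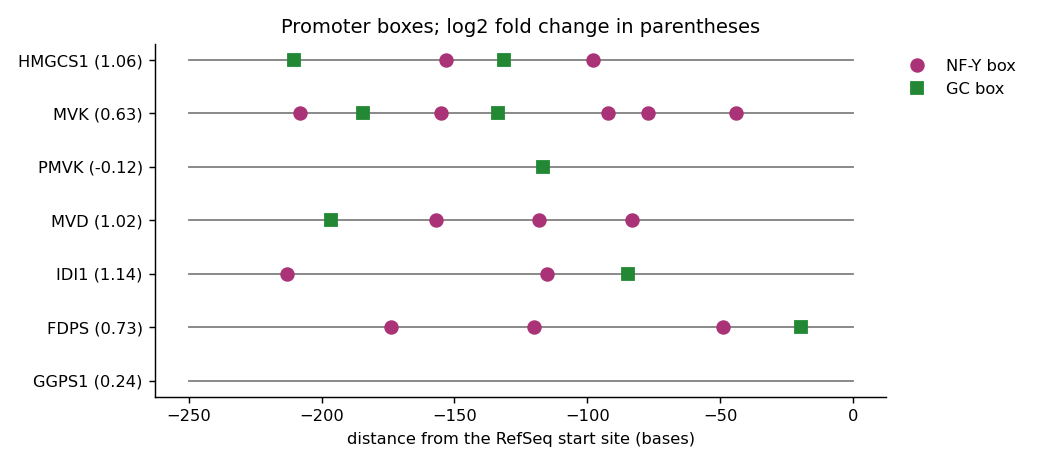
NF-Y boxes (circles) and GC boxes (squares) in the 250 bases before the RefSeq start of 7 members, by distance from the start in bases, with the log2 fold change (HG minus control) after each name. NF-Y boxes number 0 for PMVK and GGPS1 and between 2 and 5 for the others, with the most for MVK, whose log2 fold change of 0.63 is below those of HMGCS1, MVD, IDI1 and FDPS. Other windows of IDI1, HMGCS1 and GGPS1 hold other numbers.

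Of the 8 members, 7 were higher in HG by edgeR's quasi-likelihood test at an adjusted p under 0.05 (Benjamini-Hochberg over all 14936 rows tested), and 0 were lower. Over all rows tested, 7.62% were called higher and 7.80% lower. For the same 7 members, every HG library lay above every control library, which held for 6.74% of all rows, while the reverse held for 6.91% of all rows and for 0 members. The median log2 fold change (HG minus control) was 0.74 over the members and 0.0013 over all rows tested. All 8 members passed the filter on low counts, with between 962 and 25851 reads per library. Levels are given as CPM, the reads of a gene divided by the TMM-normalised library size and scaled to a common total. Counting error at the lowest count of a member was at most 3.22%, below the coefficient of variation between the libraries of a group, which ranged from 4.25% to 21.3%.

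**Figure D2:**
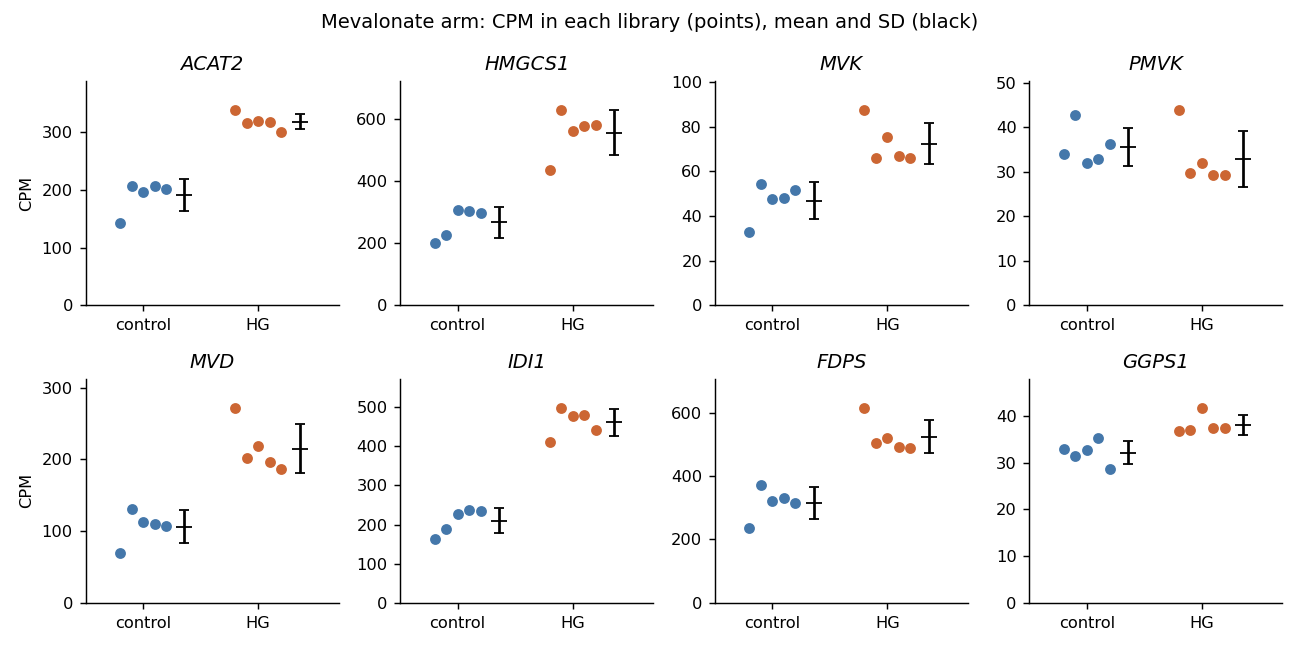
CPM (counts scaled to library size) of each member in the 5 control and the 5 HG libraries, in column order from left to right, on linear axes from 0. Black marks give the mean and SD of each group. HG points lie above all control points in every panel but PMVK, and the distance is smallest for GGPS1.

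Libraries held between 32448991 and 45864176 counts. HG_1 and control replicate 2 stood apart from the others on the second principal component (14.9% of the variance). Their log2 CPM rose with the GC content of a gene by 0.18 and 0.17 per 10 percentage points, against −0.091 to −0.0041 in the other 8, and the values without both libraries are given beside several of the results. A pair of genes that respond to glucose through MondoA, TXNIP and ARRDC4, were higher in HG, with log2 fold changes of 3.15 and 0.74. Of 12 RPE markers, 11 were tested, 0 were called higher and 3 lower (KRT8, KRT18 and PMEL), beside 7.80% of all rows called lower, with a summed level of 3012 to 3762 CPM in control and 1934 to 2682 CPM in HG. KRT8 (1864 ± 155 and 1211 ± 176 CPM) and KRT18 (1060.0 ± 123 and 659 ± 91.3 CPM) made up most of this sum, and the 8 tested markers not called included OTX2, MITF, RLBP1, RDH5 and CRYAB. OTX2 and MITF, transcription factors of the RPE, were at 87.0 to 102 and 43.9 to 64.9 CPM, and TYR and SERPINF1 stayed at or below 1.04 CPM. BEST1 varied from 0.577 to 551.5 CPM between libraries. It had 164.5 ± 244.3 CPM in control and 5.27 ± 2.55 CPM in HG, with overlapping groups (log2 fold change −4.97, edgeR adjusted p = 0.067). For 4 of the 11 tested RPE markers, OTX2 among them, every HG library lay below every control library, beside 6.91% of all rows. The median log2 fold change of the 11 was −0.20. Of 4 mesenchymal markers 2 were tested and both were lower, beside the same 7.80%, COL1A1 with a log2 fold change of −1.33 and PDGFRB with −0.78, and the list summed to 206 to 254 CPM in control and 105 to 131 CPM in HG. CD3E of T cells, CDH5 of endothelium and CRX of photoreceptors had 0 counts in every library, and PTPRC, the general leukocyte marker, had at most 4. VWF of endothelium had at most 24 counts and RCVRN of photoreceptors at most 10, while NRL, also of photoreceptors, had 17 to 43. The endothelial list summed to 0.264 to 0.583 CPM in control and 0 to 0.513 CPM in HG, and the photoreceptor list to 0.494 to 1.03 and 0.639 to 1.00 CPM. CD68, the 1 of 5 leukocyte markers that was tested, was higher by 0.70, and the list summed to 54.8 to 81.2 CPM in control and 102 to 144 CPM in HG. The part of these shifts in the members' results was not tested.

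The first enzyme of the arm, ACAT2, joins acetyl-CoA units to acetoacetyl-CoA in the cytosol. ACAT2 measured 142, 207, 197, 206 and 202 CPM in control replicates 1 to 5 and 338, 316, 320.3, 318 and 300.5 CPM in HG_1 to HG_5. The lowest HG library was 1.45 times the highest control library. The mean went from 190.8 ± 27.5 to 319 ± 13.6 CPM (SD, n = 5 each), a fold of 1.67 (95% CI 1.45 to 1.93; log2 fold change 0.74, SE 0.09, edgeR adjusted p = 0.0006). ACAT2 lies at chr6:159760328-159779055 on the plus strand. Its transcript overlaps SOD2, SOD2-OT1 and TCP1 on the opposite strand over 65.5% of its 100-base windows. TCP1 was lower in HG (log2 fold change −0.19, edgeR adjusted p = 0.0092). The sources used here do not say whether counting used strand, so reads of overlapping genes may not have been told apart.

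HMGCS1, the cytosolic synthase that adds a further acetyl-CoA to give HMG-CoA, had 201, 226, 308, 301 and 297 CPM in control replicates 1 to 5. It had 434, 627, 560.0, 576 and 578 CPM in HG_1 to HG_5. HG_1 was the lowest HG library and the groups did not overlap. The fold was 2.08 (95% CI 1.69 to 2.56), from 267 ± 49.3 to 555 ± 72.0 CPM (log2 fold change 1.06, SE 0.14, edgeR adjusted p = 0.000609). The gene lies at chr5:43289395-43313512 on the minus strand, with an antisense transcript across 14.8% of its transcript windows.

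MVK, the first of the kinases of mevalonate, was among the less abundant members, with 32.7, 54.4, 47.5, 48.0 and 51.5 CPM in control replicates 1 to 5. In HG_1 to HG_5 it had 87.4, 66.2, 75.3, 66.8 and 66.2 CPM. The lowest HG library exceeded the highest control library 1.22 times. The mean rose from 46.8 ± 8.36 to 72.4 ± 9.25 CPM, 1.55-fold (95% CI 1.26 to 1.89; log2 fold change 0.63, SE 0.13, edgeR adjusted p = 0.00882). MVK lies at chr12:109573255-109598117 on the plus strand and shares a head-to-head start region with MMAB, whose product acts on vitamin B12, with 620 bases of overlap and starts 619 bases apart. MMAB also rose, from 47.7 ± 7.81 to 68.3 ± 6.49 CPM (log2 fold change 0.52, SE 0.11, edgeR adjusted p = 0.0106), and its groups did not overlap. The MVK transcript used here shared no window with MMAB.

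PMVK, which adds the second phosphate to mevalonate, was the exception. It measured 34.0, 42.8, 32.1, 33.0 and 36.3 CPM in control replicates 1 to 5 and 43.8, 29.8, 32.1, 29.3 and 29.2 CPM in HG_1 to HG_5. The groups overlapped, and the highest value was that of HG_1 in the HG group and of replicate 2 in the control group, the pair that stood apart on the second component. The mean was 35.6 ± 4.27 CPM in control and 32.9 ± 6.26 CPM in HG, a fold of 0.922 (95% CI 0.762 to 1.11; log2 fold change −0.12, SE 0.12, edgeR adjusted p = 0.603). Without both libraries the log2 fold change was −0.17 (SE 0.05, edgeR adjusted p = 0.0381), and with a correction for GC content and transcript length over all 10 libraries it was −0.16 (SE 0.05, edgeR adjusted p = 0.0315), so PMVK was called lower under both. Over all rows tested, 13.8% and 14.1% were called lower under these settings. PMVK lies at chr1:154924734-154936991 on the minus strand with 1 annotated transcript and no overlapping gene.

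MVD removes the carboxyl group from diphosphomevalonate to give isopentenyl diphosphate. It had 69.6, 132, 113, 110.3 and 106 CPM in control replicates 1 to 5 and 272, 201, 218, 196 and 186 CPM in HG_1 to HG_5. HG_1 was the highest of all 10 and control replicate 1 the lowest, and the groups did not overlap. The mean went from 106 ± 22.6 to 215 ± 33.9 CPM, 2.02-fold (95% CI 1.59 to 2.57; log2 fold change 1.02, SE 0.16, edgeR adjusted p = 0.00163). The gene lies at chr16:88651935-88663161 on the minus strand, and its transcript has the highest GC content of the members at 65.6%.

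IDI1, the isomerase that turns isopentenyl into dimethylallyl diphosphate, showed the highest fold change of the 8 and rank 127 of the log2 fold changes of all rows. The control libraries had 164, 188, 227, 238 and 234 CPM, and HG_1 to HG_5 had 411, 498, 478, 479 and 441 CPM. Its groups were the furthest apart of the members, with a lowest HG library 1.73 times the highest control library. The mean rose from 210.0 ± 32.5 to 461 ± 34.7 CPM, 2.2-fold (95% CI 1.87 to 2.57; log2 fold change 1.14, SE 0.10, edgeR adjusted p = 0.000108). IDI1 lies at chr10:1039152-1049170 on the minus strand. Its relative IDI2, a gene known from skeletal muscle, had between 0 and 3 counts in a library.

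FDPS, which builds geranyl and farnesyl diphosphate and is the target of bisphosphonate drugs, had 235, 373, 321, 332 and 314 CPM in control replicates 1 to 5. HG_1 to HG_5 had 615, 505, 520.2, 492 and 488 CPM, all above the control libraries. The mean went from 315 ± 50.1 to 524 ± 52.3 CPM, 1.66-fold (95% CI 1.40 to 1.97; log2 fold change 0.73, SE 0.11, edgeR adjusted p = 0.00149). FDPS lies at chr1:155308748-155320666 on the plus strand, with RUSC1-AS1 opposite 15.6% of its transcript windows. FDPS also has processed pseudogenes, and how reads matching both were counted is not given in the sources used here.

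GGPS1, the branch enzyme that makes geranylgeranyl diphosphate for protein prenylation, showed the smallest rise and the narrowest gap. It had 32.9, 31.3, 32.6, 35.3 and 28.6 CPM in control replicates 1 to 5 and 36.8, 36.9, 41.7, 37.4 and 37.3 CPM in HG_1 to HG_5. The lowest HG library was 1.04 times the highest control library. The mean rose from 32.1 ± 2.47 to 38.0 ± 2.06 CPM, 1.18-fold (95% CI 1.07 to 1.31; log2 fold change 0.24, SE 0.06, edgeR adjusted p = 0.0274). The call was lost when any 1 of 5 libraries was left out, with an edgeR adjusted p of 0.0512 without control replicate 1, 0.0534 without control replicate 3, 0.0633 without control replicate 5, 0.0699 without HG_3 and 0.0507 without HG_5. GGPS1 lies at chr1:235327350-235344532 on the plus strand. A gene that GENCODE release 29 names TBCE (ENSG00000285053) runs over 21.9% of its transcript windows on the same strand. The row with that identifier varied from 4.27 to 28.4 CPM between libraries (log2 fold change −0.04, SE 0.55, edgeR adjusted p = 0.97). The part of its reads in the GGPS1 value was not tested.

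A two-sided exact permutation test on the log2 CPM of each member gave p = 0.00794 for each of the 7 members called higher, the smallest p that 5 against 5 libraries allow, and p = 0.365 for PMVK. For the 7 members this p was fixed by the separation of their groups given above, so it restates that separation.

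The members did not change by equal amounts. The 28 pairs of members were compared by the difference of their log2 CPM within each library, with a two-sided exact permutation test and Benjamini-Hochberg adjustment over the 28 pairs, and 15 differed at an adjusted p under 0.05. Without HG_1 and control replicate 2 the number was 21, and after the correction for GC content and length 22. PMVK differed from 6 of the 7 others. Its change was lower than that of its upstream neighbour MVK by 0.77 on the log2 scale and than that of its downstream neighbour MVD by 1.16 (exact permutation p = 0.00794, adjusted p = 0.0159 for each). Against GGPS1 the difference was −0.37 (exact permutation p = 0.0556, adjusted p = 0.0741). GGPS1 differed from 5 of the 7 others and from FDPS, the enzyme before it (FDPS minus GGPS1 0.50, exact permutation p = 0.00794, adjusted p = 0.0159). Among the other 6 members, 4 of 15 pairs differed, and the number was 8 without HG_1, 9 without HG_1 and control replicate 2, 9 after the correction for GC content and length, and 3 to 5 when any other library was left out. MVD changed more than ACAT2 (ACAT2 minus MVD −0.28, adjusted exact permutation p = 0.0444, and 0.0523 to 0.0819 when HG_1, HG_2, HG_3 or control replicate 1, 3 or 5 was left out), than MVK (MVK minus MVD −0.39, adjusted p = 0.0159 by the same exact test) and than FDPS (MVD minus FDPS 0.29, adjusted p = 0.0159 by the same exact test). IDI1 changed more than ACAT2 (ACAT2 minus IDI1 −0.39, adjusted p = 0.0159 by the same exact test). The 3 pairs of IDI1, HMGCS1 and MVD, whose log2 fold changes lay between 1.02 and 1.14, did not pass the test, with a smallest exact permutation p of 0.23 and a smallest adjusted p of 0.0988 over the other settings.

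Levels of different genes were compared per transcript length with the deposited FPKM values. FDPS stood first in both groups, with 239 ± 37.1 FPKM in control and 403 ± 29.1 FPKM in HG (SD, n = 5 each). ACAT2 followed with 116 ± 16.6 and 195 ± 5.81 FPKM. IDI1 had 72.9 ± 9.33 and 158 ± 11.4 FPKM, HMGCS1 63.6 ± 11.0 and 133 ± 16.0 FPKM, and MVD 59.5 ± 11.9 and 120.2 ± 16.0 FPKM. The ranges of IDI1 and HMGCS1, and of HMGCS1 and MVD, overlapped within each group, so the order among these neighbours was not beyond the spread between libraries, although within each of the 10 libraries IDI1 lay above HMGCS1. The kinases changed places in the means. PMVK lay above MVK in all 5 control libraries, with 32.8 ± 3.49 against 19.8 ± 2.89 FPKM, and in HG the ranges overlapped, with 30.4 ± 5.01 FPKM for PMVK and 31.6 ± 5.56 FPKM for MVK. MVK lay above PMVK in only 2 of the 5 HG libraries. GGPS1 was the least abundant member, with 11.5 ± 1.47 and 13.8 ± 1.32 FPKM. Its groups, apart in CPM, overlapped in FPKM, with 13.75 in control replicate 4 and 12.46 in each of HG_1 and HG_2.

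The 8 members summed to 615 ± 81.3 FPKM in control (470.0 to 662) and 1085 ± 43.4 FPKM in HG (1024 to 1137). FDPS made up 38.8% ± 1.75 of this sum in control and 37.1% ± 1.49 in HG, a difference of −1.68 percentage points that was −0.93 without control replicate 2. PMVK went from 5.40% ± 0.866 to 2.79% ± 0.368 and GGPS1 from 1.90% ± 0.36 to 1.28% ± 0.146, and the shares of these members did not overlap between the groups. IDI1 went from 11.9% ± 1.07 to 14.6% ± 1.20, with ranges that overlapped narrowly (10.1% to 12.7% in control, 12.6% to 15.6% in HG). The shares of the other 5 members overlapped too, with differences of the means between −1.68 and 1.92 percentage points. The shares are a description of the chosen 8 genes and add up to the whole, so a larger share of one lowers the others.

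**Figure D3:**
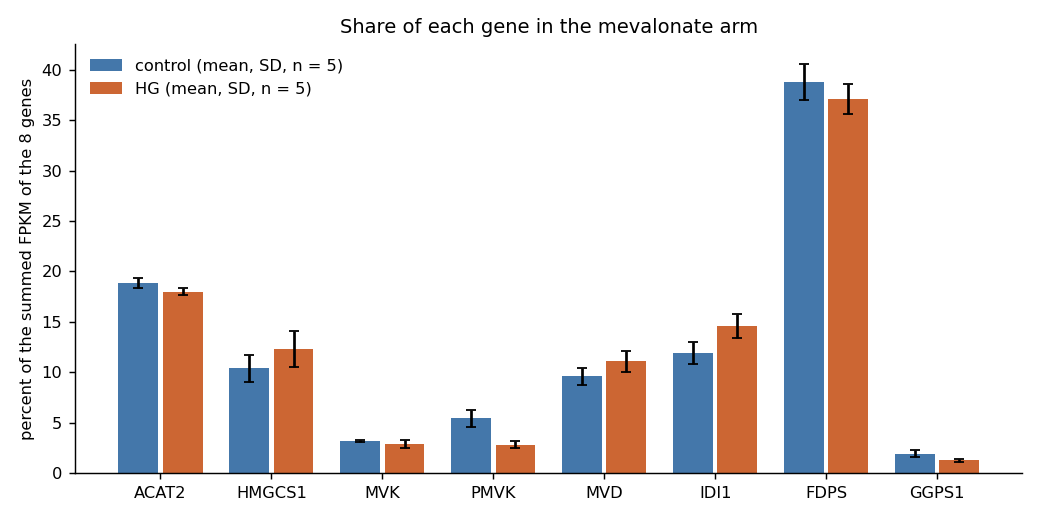
Share of each member in the summed FPKM of the 8 genes, in percent, as mean (bar) and SD (line) over 5 libraries a group. FDPS makes up more than any other member in both groups, and PMVK and GGPS1 take smaller shares in HG.

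Within a group, the libraries did not vary alike for all members. After the group means were removed, the log2 CPM of ACAT2, MVK, MVD and FDPS went together over the 10 libraries (Pearson's r between 0.905 and 0.991 for their pairs), and so did HMGCS1 and IDI1 (r = 0.940). Between these sets r was lower, from 0.0688 for HMGCS1 with FDPS to 0.639 for IDI1 with ACAT2, and ACAT2 had the highest values with both HMGCS1 (0.443) and IDI1. The transcripts of HMGCS1 and IDI1 have a GC content of 40.2% and 41.1%, and those of ACAT2, FDPS, MVK and MVD of 50.2%, 55.1%, 59.4% and 65.6%. After the correction for GC content and length, r between the sets ranged from 0.717 for HMGCS1 with MVK to 0.961 for IDI1 with MVD, and was 0.908 for HMGCS1 with FDPS. For the members of both sets, control replicate 1 then deviated furthest from its group mean (−0.447 for HMGCS1 and −0.442 for MVK, log2 scale). The corrected r therefore leans on that 1 library, and r without it was not computed. PMVK, with a GC content of 59.5%, went from r = 0.638 to r = −0.418 with MVD. GGPS1 had r between −0.276 and 0.0263 with the other members before the correction and between −0.344 and 0.113 after it. These correlations describe libraries that share depth and base composition with all their genes.

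Control replicate 1 was the lowest control library for ACAT2, HMGCS1, MVK, MVD, IDI1 and FDPS. It remained lowest for these 6 after the correction, by between 0.31 (FDPS) and 0.47 (MVD) on the log2 scale below the control mean, while its own trend on GC content was −0.04 per 10 percentage points. GGPS1 and PMVK were not lowest there.

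**Figure D4:**
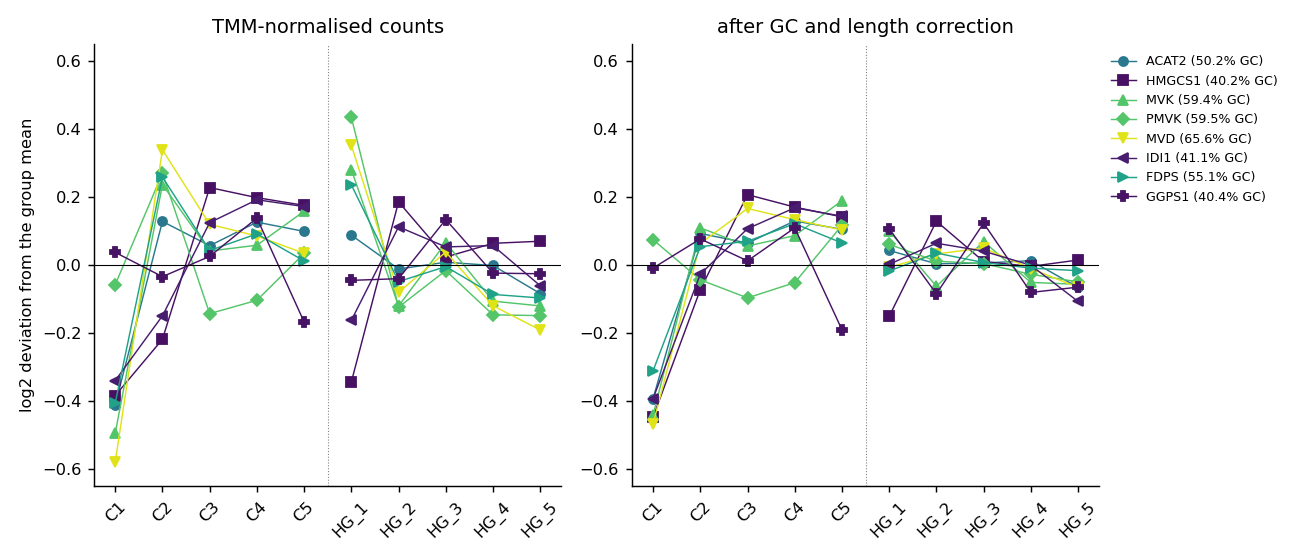
Deviation of log2 CPM from the mean of its own group, for each member in control replicates 1 to 5 (C1 to C5) and HG_1 to HG_5, before (left) and after (right) correction for GC content and transcript length. Colours give the GC content of the transcript, from 40.2% (dark) to 65.6% (yellow). Members of high and low GC content part at C2 and HG_1 on the left and lie closer on the right, and 6 members are low at C1 in both panels.

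The enzymes after farnesyl diphosphate were read from a list of 13 genes from squalene synthase to cholesterol. Of these, 11 were called higher and 0 lower, with a median log2 fold change of 0.61, beside 7.62% called higher and a median of 0.0013 over all rows. MSMO1, a C4-methyl oxidase of the sterol ring, changed most, from 372 ± 52.4 to 751 ± 38.0 CPM (log2 fold change 1.01, edgeR adjusted p = 0.000115). LBR, a sterol reductase that is also a protein of the nuclear envelope, was not called (log2 fold change −0.18, edgeR adjusted p = 0.465). For 10 of the 13, every HG library lay above every control library, beside 6.74% of all rows. Without HG_1 and control replicate 2 the number called higher was also 11, beside 13.3% of all rows.

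Genes that use farnesyl and geranylgeranyl diphosphate formed a list of 17, covering ubiquinone, menaquinone and dolichol synthesis, protein prenylation and tRNA modification. Of these, 2 were called higher and 1 lower, and the median log2 fold change was 0.03. PDSS2, a subunit of the synthase of the ubiquinone side chain, had the largest change (log2 fold change 0.34, edgeR adjusted p = 0.0243), although its groups overlapped. RABGGTB, a subunit of the transferase that prenylates Rab proteins, rose by 0.29 (edgeR adjusted p = 0.00183). ICMT, the methyltransferase of prenylated proteins, fell by 0.17 (log2 fold change −0.17, edgeR adjusted p = 0.0332). PGGT1B, a subunit of a geranylgeranyl transferase, changed least (log2 fold change 0.01, edgeR adjusted p = 0.935). The 3 calls of 17 stand beside 15.4% called in either direction over all rows. Without HG_1 and control replicate 2, 4 of the 17 were called, beside 27.1% of all rows, and after the correction for GC content and length 8 of the 17, beside 27.9% of all rows.

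Of 7 genes that control SREBP, 1 was called higher and 0 lower, beside 7.62% and 7.80% of all rows, and the median log2 fold change was 0.08. The 1 called was INSIG1, which retains the SREBP complex in the endoplasmic reticulum and is itself a target of SREBP. It went from 151 ± 27.7 to 289 ± 23.6 CPM (log2 fold change 0.93, edgeR adjusted p = 0.000684). SREBF2, the gene of SREBP-2, had 387 ± 20.1 and 408 ± 10.2 CPM (log2 fold change 0.08, SE 0.04, edgeR adjusted p = 0.30), and SREBF1 had a log2 fold change of 0.08 (edgeR adjusted p = 0.61). INSIG2 showed the smallest change of the list (log2 fold change 0.04, edgeR adjusted p = 0.791). MBTPS1, the protease that makes the first cut in SREBP, missed the threshold (log2 fold change −0.16, edgeR adjusted p = 0.0509), with every HG library below every control library. Without HG_1 and control replicate 2, 4 of the 7 were called in either direction, beside 27.1% of all rows, and 3 after the correction for GC content and length, beside 27.9%. RNA levels say nothing of the processed SREBP protein.

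**Figure D5:**
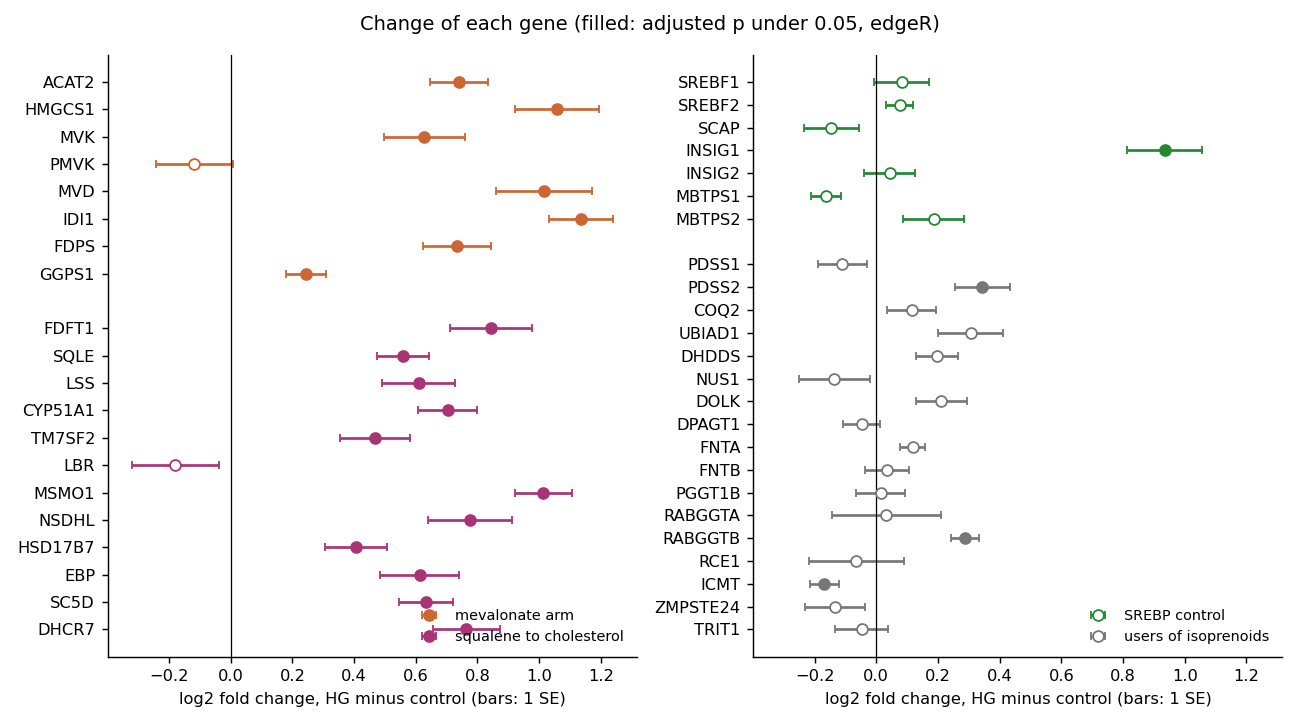
Log2 fold change (HG minus control) with 1 SE for the mevalonate arm and the squalene to cholesterol enzymes drawn here (left) and for the SREBP control genes and the users of isoprenoids (right), from edgeR over 10 libraries. Filled points had an adjusted p under 0.05. In the left panel every gene drawn but PMVK and LBR is filled and to the right of 0, and in the right panel INSIG1 lies apart from the rest.

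Upstream of the arm, 2 of 3 genes of cytosolic acetyl-CoA supply were called higher and 0 lower, beside 7.62% and 7.80% of all rows. ACSS2, which makes acetyl-CoA from acetate, rose from 38.4 ± 5.74 to 87.6 ± 7.17 CPM (log2 fold change 1.19, edgeR adjusted p = 9.31e-05). ACLY, which splits citrate, rose by 0.49 on the log2 scale (edgeR adjusted p = 0.000422). SLC25A1, the mitochondrial citrate carrier, had a log2 fold change of 0.31 (edgeR adjusted p = 0.0915). A list of 6 relatives, IDI2 and genes of mitochondrial or ketone metabolism, had 4 genes tested and 1 called higher, beside the same 7.62%. That was ACAT1, the mitochondrial thiolase, with a log2 fold change of 0.34 (edgeR adjusted p = 0.00097).

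The genes most like the arm over the 10 libraries were ranked among 12357 other genes by Pearson's r of log2 CPM with the mean of the 8 standardised members. DHCR7, the last reductase of the Kandutsch-Russell route to cholesterol, ranked first (r = 0.993). SLC45A2, ERG28, GOT1, CTSK, HMOX1, ORAI3, PCYT2, VAC14 and NEU1 followed, with r between 0.988 and 0.993. After group means were removed the 5 highest were PLEKHM1, GM2A, LSS, CTSK and DHCR7, with r between 0.956 and 0.968. DHCR7 and CTSK were in both rankings. The ranking over 10 libraries includes the difference between the groups, so genes that separate the groups as the arm does score high. Both rankings used log2 CPM without the correction for GC content and length. Whether these genes share regulation with the arm was not tested.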

How the data were processed

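RNA of ARPE-19 cells (5 control and 5 HG libraries) was extracted with Trizol and sequenced by a company. The submitters' processing notes name fastp 0.20.1, HISAT2 2.2.1 and GRCh38. The counting program, its use of strand and the annotation are not given in the sources used here. The authors deposited read counts, whole numbers per gene without normalization, and FPKM values, in which the authors had scaled reads to transcript length and library size. Control columns carry the sample names. HG columns are numbered where the samples are lettered, so HG libraries are named by column.

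Counts were compared in R 4.3.3 with edgeR 4.0.16 (TMM, default filter on low counts, quasi-likelihood test, Benjamini-Hochberg adjustment over the 14936 rows tested). CPM are normalised to TMM library sizes, and log2 CPM for pairs, correlations and permutation tests used a prior count of 2. Library pairs of a group differed beyond sampling noise (chi-square per gene of at least 13.8). Alternatives were RLE size factors, DESeq2 1.42.0, unscaled library sizes, other filters, the likelihood ratio test, limma 3.58.1 on log2(FPKM + 1) or log2(FPKM + 0.1), 1 surrogate variable (sva 3.50.0), the column number as a block, each library left out, and HG_1 and control replicate 2 left out together. A lowess correction (span 0.3) for GC content and transcript length (13538 rows, GENCODE release 29, GRCh38) was added after seeing the data. The steps were tested on simulated data. A test planned for the shares of the arm is not given, since these depend on the chosen list.

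The members and lists were chosen with earlier results of these data known. All members are named. Of each further list, the genes of largest and smallest change are named, except that some genes counted in the lists are not otherwise reported here. Others (LBR, RABGGTB, ICMT, SREBF1, SREBF2, MBTPS1 and the markers) were chosen after their values were seen. Neighbours are genes that overlap a member or start within 1000 bases of its start. Likeness was ranked over genes with a mean of at least 1 CPM. 3 counts correspond to 0.0654 to 0.0925 CPM per library. Intervals of 95% come from the edgeR fit, and the limit of 3 counts covers counting error only.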

Additional observations from a re-analysis of the deposited data

Results flagged for a closer look

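Of 32 groups of 5 libraries (CPM and share of the summed FPKM, per member and group), 8 had a library at a distance from the remaining 4. Chance gives about 1 in 20, or 1.6. The 32 groups share genes and libraries, so they are not independent and 1 library can be flagged several times. Of the 8 flagged, 6 were HG_1 or control replicate 2. HG_1 was high for PMVK, with 43.9 CPM against 29.2 to 32.1 CPM in the other HG libraries, and for FDPS, with 615 CPM against 488 to 520.2 CPM. In the shares of the arm, HG_1 was also high for PMVK (3.44% against 2.56% to 2.71%) and for FDPS (39.7% against 36.1% to 36.9%). Control replicate 2 was high for the share of FDPS (41.8% against 37.4% to 38.7% in the other controls) and low for that of IDI1 (10.1% against 11.9% to 12.7%). Control replicate 1 was low for ACAT2, with 142 CPM against 197 to 207 CPM. HG_3 was high for GGPS1, with 41.7 CPM against 36.8 to 37.4 CPM.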

How the results depend on the processing

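ACAT2, HMGCS1, MVD, IDI1 and FDPS were called higher under all 14 other settings and in all 10 fits that left out 1 library, and no member changed direction. With 1 library left out, the log2 fold change ranged from 0.65 to 0.77 for ACAT2, 0.97 to 1.14 for HMGCS1, 0.52 to 0.69 for MVK, −0.24 to −0.04 for PMVK, 0.90 to 1.11 for MVD, 1.06 to 1.19 for IDI1, 0.65 to 0.80 for FDPS and 0.20 to 0.28 for GGPS1. PMVK was called lower without HG_1 and control replicate 2 (−0.17) and after the GC and length correction (−0.16), which gave 1 member called lower in each. GGPS1 lost its call with limma on log2(FPKM + 1) (0.25, adjusted p = 0.117), log2(FPKM + 0.1) (0.27, adjusted p = 0.113) and a mean FPKM of at least 1 (0.25, adjusted p = 0.0817). The cause was not tested.

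Column numbers did not pair the libraries. Deviations of same-numbered libraries correlated between −0.07 and 0.04, and 1 of 10 libraries correlated best with its own number. With the replicate block, MVK had 0.64 (edgeR adjusted p = 0.0736) and GGPS1 0.24 (edgeR adjusted p = 0.0866), and 5 members, 8 squalene arm genes (11 without the block), 1 user of isoprenoids and 1071 rows of the whole table were called.

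The whole table had 2303 calls, and 3069 with DESeq2, 1648 to 2993 with 1 library left out, 4035 without HG_1 and control replicate 2 and 3780 after the GC and length correction. Calls among users of isoprenoids were 3, and 6 with DESeq2, 8 after the correction, 4 without both libraries and 1 to 4 with 1 library left out (1 without control replicate 5, HG_2 or HG_5). SREBP control had 1 call, and 2 with RLE size factors, DESeq2, at least 10 counts in every library or 1 surrogate variable, 4 without both libraries, 3 after the correction and 1 to 2 with 1 library left out (2 without control replicate 2 or HG_1). The 15 differing pairs were 14 to 20 with 1 library left out, 21 without both libraries and 22 after the correction. Among the genes named, depth limits IDI2, TYR and the markers at or near 0 counts.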
